A study of Mus musculus with 16 samples.

Results

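Matricellular proteins are secreted into the matrix, where they act on cells and growth factors rather than as structural fibers. This report covers 10 mouse genes of this class, *Ccn1*, *Ccn2*, *Ccn3*, *Ccn4* and *Ccn5* of the CCN family, the thrombospondins *Thbs1* and *Thbs2*, *Postn*, *Tnc* and *Sparc*. They were chosen by gene symbol and not by a rule on their levels, but with earlier results of these data known. They make up 10 of the 55414 gene identifiers counted in each RNA-Seq library. The cells were chondrocyte-enriched cultures from the epiphyses of 3- to 4-day-old mice of a C57BL/6 background, with males and females pooled, and 4 libraries were made for each of 4 groups. Control vehicle cells were wild type and received PBS, and Notch2 mutant vehicle cells were heterozygous for the *Notch2*tm1.1Ecan allele and also received PBS. Control TNFα and Notch2 mutant TNFα cells had the same genotypes and received TNFα at 50 ng/ml, and all 4 groups were collected at 6 h. The mutant allele is a knock-in that ends NOTCH2 before its PEST domain, the stretch that targets the active intracellular fragment for degradation. The allele is global, so that every cell type in the mutant cultures carried it, and all cells were grown in 10% serum before treatment.

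CCN proteins share a modular build and bind integrins, heparan sulfate proteoglycans and growth factors. *Ccn1* and *Ccn2* are immediate early genes, and in many mesenchymal cells they respond to serum, to cell tension through YAP and TEAD, and to TGFβ. *Ccn2* has a known role in growth plate chondrocytes, while thrombospondins, tenascin and periostin are best known from the matrix of perichondrium, tendon and healing tissue.

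The libraries held 3439726 to 44237300 counts on genes, the fewest in Notch2 mutant TNFα replicate 4, and each of the 10 genes had at least 370 counts in every library. Control vehicle replicate 4 and control TNFα replicate 4 stood apart from their groups. On the first principal component, which held 78.6% of the variance of the log2 CPM (counts per 1e6 counts on genes, after TMM scaling), control vehicle replicate 4 lay at 14.5 where the other 7 vehicle libraries lay between 56.3 and 58.7. The remaining TNFα libraries had scores from -56.2 to -52.1, and that of control TNFα replicate 4 was -40.5. *Icam1*, which TNFα induces through NF-κB, was at 447 CPM in control vehicle replicate 4 and at 34.6 to 41.0 CPM in the other control vehicle libraries. Notch2 mutant TNFα replicate 4, the shallowest library, lay at 32.8 on the second component (6.90% of the variance), and the other 3 of its group at 11.6 to 12.4. Results that rest on the control replicate 4 libraries are given with and without them. *Notch2* was at 131 ± 20.2 CPM (SD, n = 4) in control vehicle, 154 ± 13.2 in mutant vehicle, 154 ± 27.8 in control TNFα and 219 ± 15.6 in mutant TNFα, and its counts do not separate the mutant from the wild type transcript. The Notch target *Heyl* was at 0.153 to 0.303 CPM in control vehicle and at 1.45 to 2.32 CPM in mutant vehicle, in the direction of the genotype labels. The chondrocyte marker *Col2a1* was at 38028 ± 1456 CPM (SD, n = 4) in control vehicle, and markers of other cell types are given below.

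The levels of the 10 genes were compared with each other only per transcript length, as RPKM on the union of exons. In control vehicle *Thbs1* came first at 3631 ± 132 RPKM (SD, n = 4), followed by *Sparc* (2241 ± 70.2), *Ccn2* (622 ± 50.1), *Ccn1* (472 ± 41.2), *Ccn5* (351 ± 25.9), *Tnc* (96.3 ± 4.31), *Thbs2* (85.1 ± 2.03), *Ccn3* (71.9 ± 1.67), *Postn* (30.3 ± 2.05) and *Ccn4* (15.05 ± 0.95). No neighbors in this order overlapped between libraries, although with the longest transcript as the length *Thbs1* and *Sparc* were level in control vehicle, at means of 3763 and 3757 RPKM. In mutant vehicle *Ccn1*, at 611 ± 28.0 RPKM, overlapped *Ccn2* at 628 ± 28.1, and *Ccn3*, *Tnc* and *Thbs2* overlapped in a row at 111 ± 3.60, 103 ± 6.36 and 101 ± 3.30. With TNFα *Sparc* took the first place in both genotypes, at 2290 ± 43.9 RPKM in control and 2062 ± 94.7 in mutant cells, and *Thbs1* the second. *Ccn2* ranked 3 of 10 in mutant vehicle and 9 of 10 in mutant TNFα, where it was at 51.3 ± 3.62 RPKM. *Ccn4* came last in all 4 groups.

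**Figure D1:**
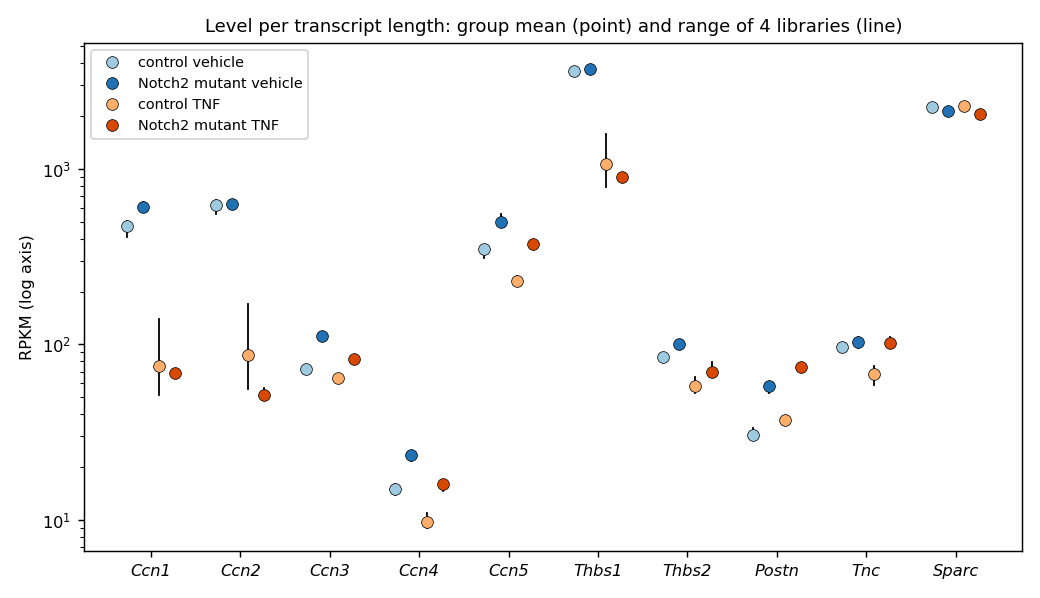
RPKM on a log axis for the 10 genes, with the mean of each group as a point and the range of its 4 libraries as a line, for control and Notch2 mutant cells with vehicle or TNFα. Levels span from 9.67 RPKM for Ccn4 in control TNFα to 3705 RPKM for Thbs1 in Notch2 mutant vehicle, and Ccn1, Ccn2 and Thbs1 show the widest gap between vehicle and TNFα.

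TNFα was compared with vehicle in each genotype, to ask how these genes respond to the cytokine. In control cells 8 of the 10 genes were lower with TNFα, beside 20.9% of the 19338 genes tested, and 2 were higher, beside 23.3%. Throughout, a gene counts as called where the p of the quasi-likelihood test of edgeR, adjusted by Benjamini-Hochberg, was under 0.05. *Ccn1*, *Ccn2* and *Thbs1* were lower by at least 2-fold, which held for 3.31% of all genes. In Notch2 mutant cells 7 genes were lower, beside 21.9% of 19633 genes, and *Postn* was higher, beside 22.6%, and the same *Ccn1*, *Ccn2* and *Thbs1* were lower by at least 2-fold, beside 4.65%. The median log2 fold change of the 10 genes was -0.55 in control and -0.44 in mutant cells, while over all genes tested it was 0.039 and 0.026. Libraries of the 2 treatments did not overlap for 9 of the 10 genes in control cells and for 8 in mutant cells, beside 42.2% and 40.9% of all genes. The sample labels give serum removal for the TNFα groups only, whereas the study's legend gives it for vehicle and TNFα alike, so that an effect of TNFα and one of serum removal cannot be told apart here. In bulk RNA, fewer cells of one type and less RNA per cell cannot be told apart either.

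**Figure D2:**
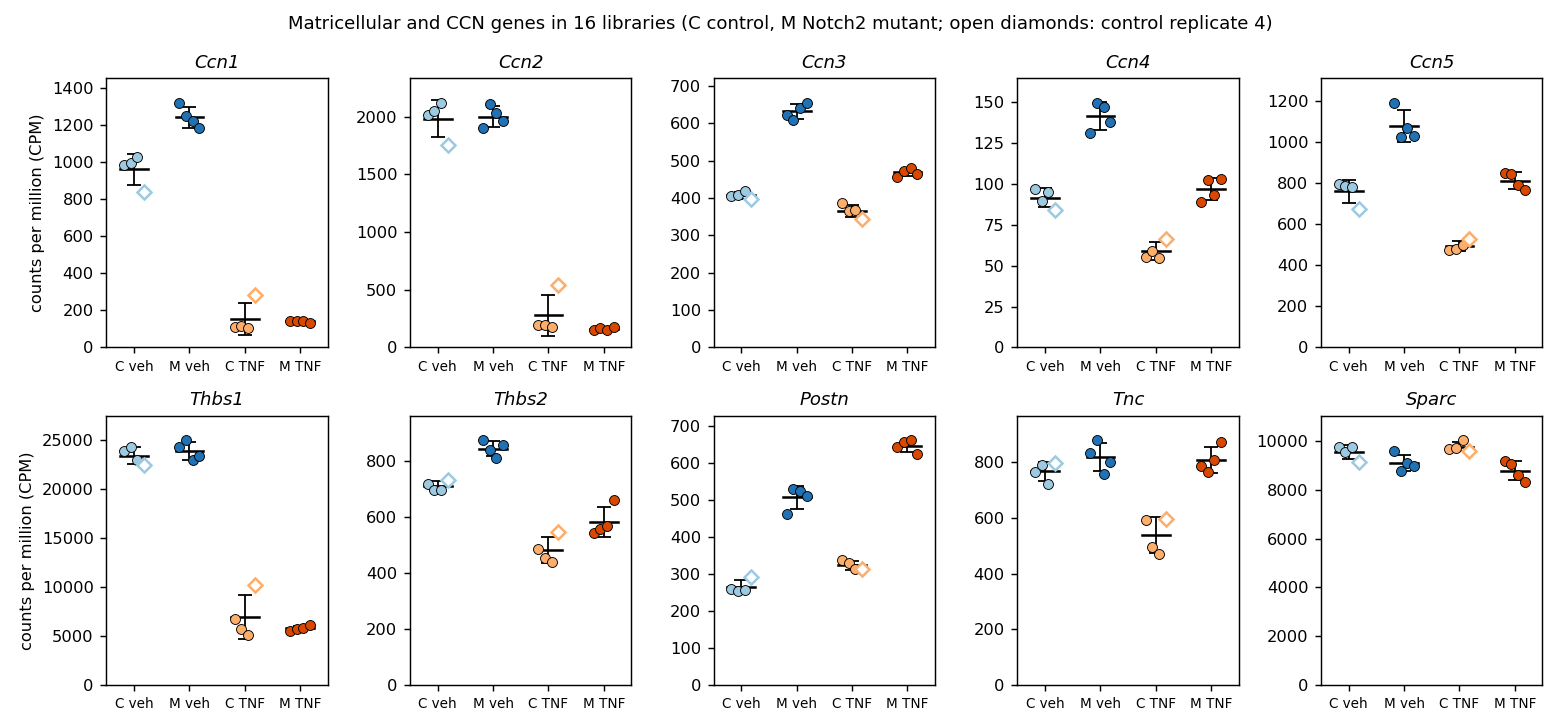
CPM of each of the 10 genes in the 16 libraries, with circles for libraries, open diamonds for replicate 4 of the control groups, and the mean ± SD as a line with error bars. Ccn1, Ccn2 and Thbs1 are low in all 8 TNFα libraries, and control TNFα replicate 4 is the highest of these 8 for each of the 3 genes.

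*Ccn1* (ENSMUSG00000028195, GRCm39 chromosome 3, 145352720 to 145355738, minus strand) encodes CYR61, a ligand of integrins that regulates adhesion and matrix turnover. Its CPM in control vehicle libraries 1 to 4 were 982, 994, 1023 and 836, and in control TNFα libraries 108, 113, 105 and 285. Mutant vehicle libraries held 1317, 1245, 1219 and 1183 CPM, and mutant TNFα libraries 140, 145, 142 and 134 CPM. All 8 TNFα libraries were below all 8 vehicle libraries. The log2 fold change with TNFα was -2.60 (standard error 0.39, adjusted p = 0.0019) in control cells, or 6.08-fold lower, and -3.09 (standard error 0.06, adjusted p = 3.51e-24) in mutant cells, or 8.51-fold lower. The larger error in control cells came with replicate 4, and without both control replicate 4 libraries the value was -3.16 (standard error 0.04), or 8.97-fold lower.

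The start site regions of 5 of the 10 genes (*Ccn1*, *Postn*, *Tnc*, *Thbs2* and *Sparc*, 7 windows) could be matched to RefSeq, on GRCm38.p6. The 250 bases before the start of *Ccn1* are shown because *Ccn1* had the largest fall among these 5 genes, and those before the second start of *Postn* because *Postn* was the member that rose in both genotypes. Capitals mark matches, on either strand, to the TEAD core GGAATG (present in 12.6% of 32851 promoter windows of the same length), the RBPJ core TGGGAA (21.6%), the AP-1 motif TGANTCA (6.7%), the TATA motif TATAAA (12.4%), the NF-κB motif (7.3%) or the CArG box bound by SRF (1.5%). No matches to different motifs overlapped in these windows.
Ccn1, chr3:145649986-145650235, minus strand: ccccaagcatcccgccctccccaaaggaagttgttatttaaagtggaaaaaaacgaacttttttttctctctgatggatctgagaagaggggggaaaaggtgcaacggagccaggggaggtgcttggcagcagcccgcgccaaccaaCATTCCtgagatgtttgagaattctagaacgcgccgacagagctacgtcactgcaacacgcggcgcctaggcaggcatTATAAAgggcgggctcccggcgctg
Postn, chr3:54360857-54361106, plus strand: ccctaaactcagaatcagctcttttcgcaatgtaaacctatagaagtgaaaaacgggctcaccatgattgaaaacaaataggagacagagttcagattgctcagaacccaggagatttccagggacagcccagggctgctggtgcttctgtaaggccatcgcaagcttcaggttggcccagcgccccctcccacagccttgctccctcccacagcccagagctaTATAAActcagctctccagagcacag
The *Ccn1* window held 1 TEAD core, 103 to 98 bases before the start and on the opposite strand, and 1 TATA motif 25 to 20 bases before it, while the *Postn* window held only a TATA motif, 26 to 21 bases before the start. Neither *Tnc* nor *Thbs2* nor *Sparc* held a TEAD core. Both *Tnc* windows held 1 RBPJ core, *Thbs2* held 1 NF-κB match 156 to 147 bases before its start, and the CArG and AP-1 letters were found in none of the 7 windows.

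*Ccn2* (ENSMUSG00000019997, chromosome 10, 24471333 to 24474900, plus strand) encodes connective tissue growth factor, which growth plate chondrocytes need for matrix production. Its CPM in control vehicle libraries 1 to 4 were 2014, 2045, 2119 and 1753, and in control TNFα libraries 192, 197, 177 and 544. In mutant cells the vehicle libraries held 1903, 2111, 2030 and 1961 CPM, and the TNFα libraries 155, 165, 155 and 179 CPM. TNFα and vehicle libraries were far apart, and control TNFα replicate 4 was the highest of the TNFα libraries. *Ccn2* had the largest fold change of the 10 genes, -2.79 on the log2 scale in control cells (standard error 0.44, adjusted p = 0.00225) and -3.57 in mutant cells (standard error 0.07, adjusted p = 4.51e-25), which is 6.92- and 11.9-fold lower. Without the control replicate 4 libraries it was 10.6-fold lower in control cells (log2 fold change -3.41, standard error 0.04).

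The other 3 CCN genes changed less. *Ccn3* (ENSMUSG00000037362, chromosome 15, 54609012 to 54620154, plus strand) encodes NOV, which counteracts CCN2 in several settings, and its CPM were 397 to 420 in control vehicle, 345 to 386 in control TNFα, 608 to 655 in mutant vehicle and 457 to 481 in mutant TNFα. It fell in mutant cells (log2 fold change -0.38, standard error 0.06, adjusted p = 2.14e-06). The change in control cells was -0.11 on the log2 scale with an adjusted p of 0.0457, which exceeded 0.05 in 6 of the 8 fits that left out a single library, and the adjusted p was 0.122 without control vehicle replicate 3. *Ccn4* (ENSMUSG00000005124, chromosome 15, 66763060 to 66795050, plus strand) encodes WISP1, a target of WNT signaling in bone and cartilage cells. Its CPM of 84.2 to 96.7 in control vehicle and 54.7 to 66.5 in control TNFα amounted to a change of -0.59 (log2, adjusted p = 1e-07), and 131 to 150 in mutant vehicle and 89.2 to 103 in mutant TNFα gave one of -0.50 (adjusted p = 4.96e-07).

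*Ccn5* (ENSMUSG00000027656, chromosome 2, 163662753 to 163675066, plus strand) encodes WISP2, which lacks the C-terminal module of the other CCN proteins. Control vehicle libraries 1 to 4 held 795, 787, 779 and 676 CPM, and control TNFα libraries 475, 479, 497 and 529 CPM. Mutant vehicle libraries held 1190.05, 1024, 1066 and 1028 CPM, and mutant TNFα libraries 848, 843, 789.7 and 765 CPM. *Ccn5* was thus lower with TNFα in both genotypes without overlap, and the mutant TNFα libraries spanned a range that overlapped that of the control vehicle libraries. Its log2 fold change with TNFα was -0.57 in control cells (standard error 0.05, adjusted p = 5.91e-09) and -0.36 in mutant cells (standard error 0.06, adjusted p = 2.15e-05).

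With these unequal falls the make-up of the CCN family shifted. The summed RPKM of *Ccn1* to *Ccn5* was 1532 ± 118 (SD, n = 4) in control vehicle, 1872 ± 47.9 in mutant vehicle, 465 ± 108 in control TNFα and 594 ± 17.9 in mutant TNFα. *Ccn1* and *Ccn2* together made up 70.8 to 72.2% of the sum in control vehicle, 64.6 to 67.8% in mutant vehicle, 26.0 to 49.5% in control TNFα and 19.5 to 21.3% in mutant TNFα. In control TNFα replicate 4 they made up 49.5%, and in the other 3 libraries of this group at most 28.5%. *Ccn5* held 22.3 to 23.4% of the sum in control vehicle and 25.2 to 28.6% in mutant vehicle. With TNFα it held 39.0 to 56.0% in control and 61.5 to 64.8% in mutant cells, the largest share in every TNFα library of both genotypes. *Ccn4* stayed between 0.93 and 2.94% in all libraries. The sixth CCN gene, *Ccn6*, was at 0.39 CPM or less in vehicle libraries and 0.40 CPM or less in TNFα libraries.

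**Figure D3:**
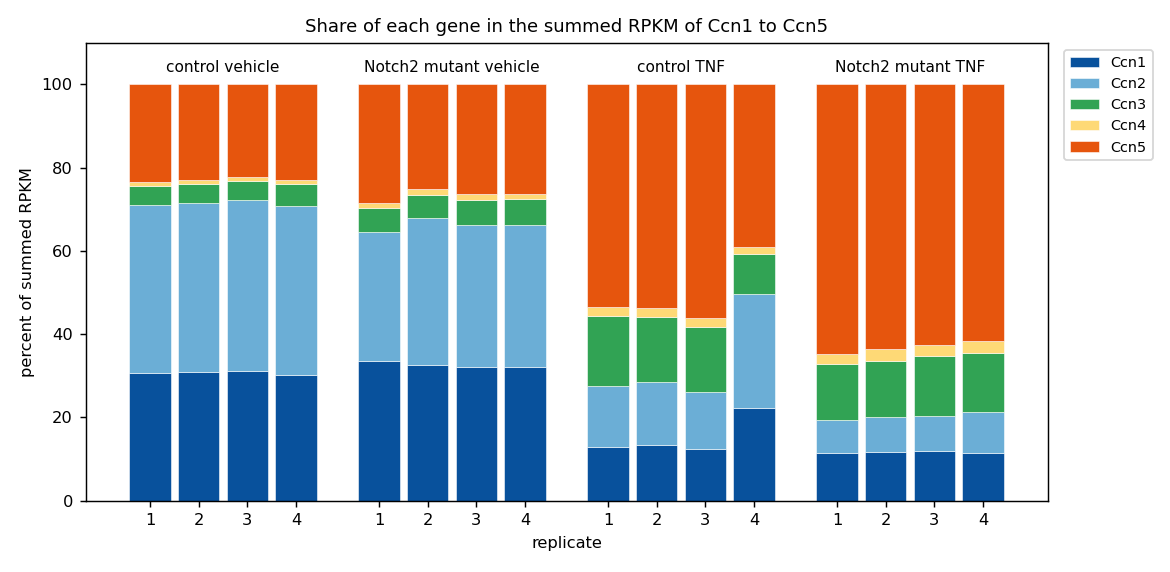
Share of each of Ccn1 to Ccn5, in percent, in their summed RPKM, with a stacked bar for each of the 16 libraries. Ccn1 and Ccn2 fill 64.6 to 72.2% of the vehicle bars, and Ccn5 is the largest part of every TNFα bar.

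*Thbs1* (ENSMUSG00000040152, chromosome 2, 117941974 to 117957616, plus strand) encodes thrombospondin 1, which activates latent TGFβ and signals through CD47 and CD36. It held the most counts of the 10 genes with vehicle, at 23941, 24367, 23010.1 and 22490.5 CPM in control libraries 1 to 4 and at 24317, 25017, 23002 and 23360.3 CPM in mutant libraries. With TNFα the control libraries held 6731, 5721, 5067 and 10192 CPM, and the mutant libraries 5526, 5711, 5826 and 6067 CPM. Vehicle and TNFα libraries did not overlap, and control TNFα replicate 4 was again the highest of the TNFα libraries. *Thbs1* fell 3.28-fold in control cells (log2 fold change -1.72, standard error 0.23, adjusted p = 0.00109) and 4.00-fold in mutant cells (log2 fold change -2.001, standard error 0.06, adjusted p = 3.28e-21). Without the control replicate 4 libraries the fall in control cells was 3.97-fold. Its receptor *Cd47* rose in both genotypes, with log2 fold changes of 1.83 in control (adjusted p = 0.000383) and 1.97 in mutant cells (adjusted p = 9.96e-16).

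*Thbs2* (ENSMUSG00000023885, chromosome 17, 14885761 to 14914528, minus strand) encodes thrombospondin 2, a relative that does not activate latent TGFβ. It was at 698 to 734 CPM in control vehicle, 440.5 to 548 in control TNFα, 810.2 to 875 in mutant vehicle and 543 to 661 in mutant TNFα. The fall with TNFα was 1.43-fold in control cells (log2 fold change -0.52, adjusted p = 1.22e-06) and 1.41-fold in mutant cells (log2 fold change -0.49, adjusted p = 1.03e-07). It was smaller than that of *Thbs1*, although the difference between the 2 genes was not tested.

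*Postn* (ENSMUSG00000027750, chromosome 3, 54268501 to 54298471, plus strand) encodes periostin, a matrix protein of periosteum and perichondrium. Control vehicle libraries 1 to 4 held 259, 253, 258 and 292 CPM and control TNFα libraries 338, 331, 314 and 314 CPM, while mutant vehicle libraries held 464, 531, 525 and 513 CPM and mutant TNFα libraries 645, 658, 663 and 625 CPM. All mutant libraries lay above all control libraries, and within each genotype TNFα libraries lay above vehicle libraries. *Postn* rose 1.26-fold with TNFα in control cells (log2 fold change 0.33, standard error 0.05, adjusted p = 2.24e-05) and 1.32-fold in mutant cells (log2 fold change 0.40, standard error 0.06, adjusted p = 3.41e-06).

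*Tnc* (ENSMUSG00000028364, chromosome 4, 63878014 to 63965443, minus strand) encodes tenascin C, which weakens adhesion to fibronectin. With vehicle the CPM were 765, 789.5, 721 and 797 in control libraries 1 to 4 and 834, 879, 759.6 and 801 in mutant libraries, and with TNFα they were 592, 495, 469 and 597 in control and 785, 764, 809 and 874 in mutant libraries. The 4 control TNFα libraries lay below the other 12, which overlapped. *Tnc* fell in control cells (log2 fold change -0.47, standard error 0.09, adjusted p = 0.00171), and in mutant cells its log2 fold change was 0.03 (95% interval -0.09 to 0.15, adjusted p = 0.735).

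*Sparc* (ENSMUSG00000018593, chromosome 11, 55285317 to 55314067, minus strand) encodes osteonectin, a collagen chaperone of matrix-forming cells. It was at 9131 to 9768 CPM in control vehicle, 9617 to 10038 in control TNFα, 8771 to 9578 in mutant vehicle and 8323 to 9194 in mutant TNFα. The log2 fold change with TNFα was 0.08 in control cells (standard error 0.02, adjusted p = 0.0109), with libraries that overlapped, and -0.00075 in mutant cells (95% interval -0.12 to 0.11, adjusted p = 0.994). The call in control cells was lost when control vehicle replicate 4 was left out (0.05, adjusted p = 0.291), without control TNFα replicate 3 (adjusted p = 0.0984), and without both control replicate 4 libraries (adjusted p = 0.0832), so that 9 of the 10 genes passed the test without the latter. With no library left out it was also lost with DESeq2 (adjusted p = 0.228), with a fit to all 16 libraries (0.274) and with 1 surrogate variable (0.0628).

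**Figure D4:**
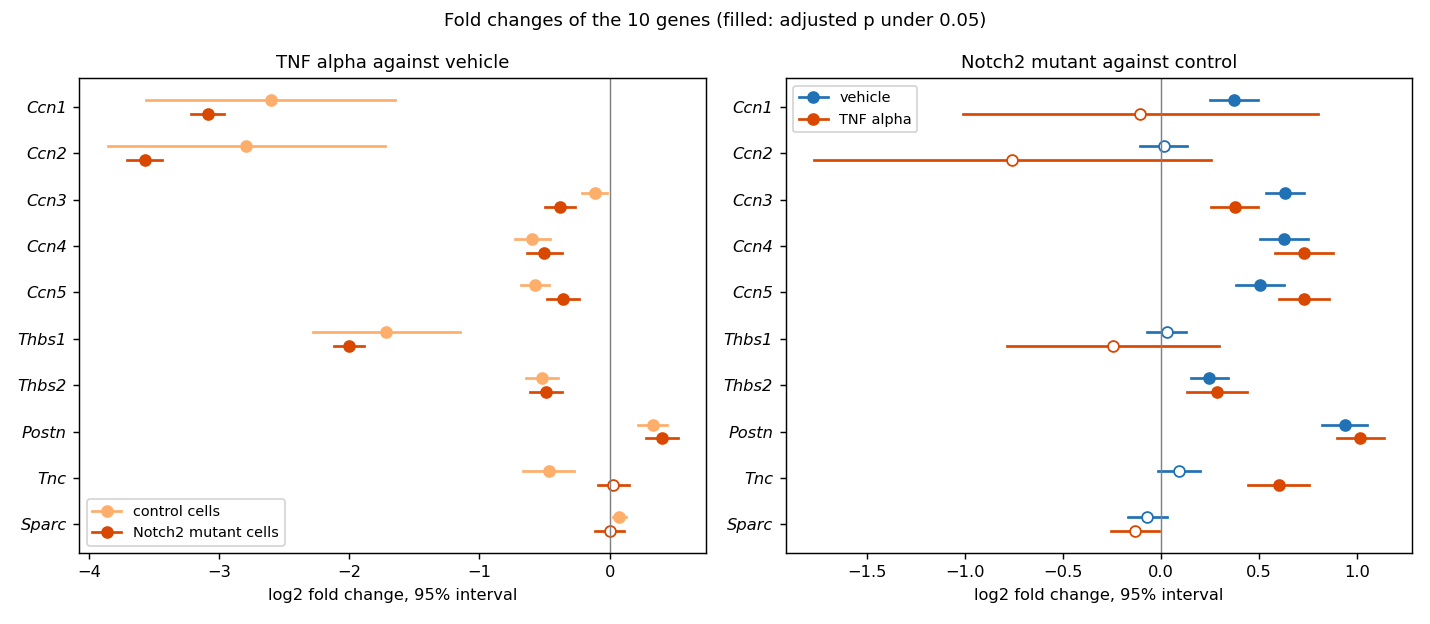
Log2 fold changes of the 10 genes with 95% intervals, for TNFα against vehicle in each genotype (left) and for Notch2 mutant against control with each treatment (right), with filled points where the adjusted p was under 0.05. Ccn2, Ccn1 and Thbs1 lie farthest to the left with TNFα, at -3.57, -3.09 and -2.001 in mutant cells, and Postn lies farthest to the right between genotypes.

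Notch2 mutant cells were compared with control cells under each treatment, to ask what the allele does to these genes. With vehicle 6 of the 10 genes were higher in mutant cells, beside 6.19% of the 19432 genes tested, and none was lower at an adjusted p under 0.05 (0 at an unadjusted p under 0.05, and 0 with DESeq2), beside 4.35%. None rose 2-fold, beside 0.957% of all genes. The 6 genes were *Postn*, *Ccn1*, *Ccn3*, *Ccn4*, *Ccn5* and *Thbs2*, and for each of them the libraries did not overlap, which held for 16.1% of all genes. With TNFα 6 genes were higher, beside 5.63% of 19227 genes, and 0 were lower (1 at an unadjusted p under 0.05, and 1 with DESeq2, *Sparc* in both), beside 4.33%. *Postn* was higher by at least 2-fold, beside 1.02%. Libraries did not overlap for 6 of the 10 genes with TNFα, beside 15.3% of all genes, 5 of them higher in mutant cells and *Sparc* lower. The median log2 fold change of the 10 genes was 0.31 with vehicle and 0.33 with TNFα, and over all genes tested it was -0.0020 and -0.012.

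*Postn* showed the largest difference between genotypes. It was 1.91-fold higher in mutant cells with vehicle (log2 fold change 0.93, standard error 0.06, adjusted p = 5.42e-11) and 2.02-fold higher with TNFα (log2 fold change 1.02, standard error 0.06, adjusted p = 1.61e-12). *Ccn3* was 1.55-fold higher with vehicle (log2 fold change 0.63, adjusted p = 1.74e-09) and 1.30-fold with TNFα (log2 fold change 0.37, adjusted p = 4.57e-05). *Ccn4* was 1.54-fold higher with vehicle (log2 fold change 0.63, adjusted p = 6.96e-08) and 1.66-fold with TNFα (log2 fold change 0.73, adjusted p = 2.13e-08), and *Ccn5* was 1.42- and 1.66-fold higher (adjusted p = 2.6e-06 and 1.58e-09).

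The calls for the other genes depended more on single libraries or settings, or were not made. *Thbs2* was 1.19-fold higher in mutant vehicle (log2 fold change 0.25, adjusted p = 0.000566) and 1.22-fold higher in mutant TNFα (log2 fold change 0.28, adjusted p = 0.0112), and the latter call was lost when control TNFα replicate 2 (0.26 without it, adjusted p = 0.0557) or replicate 3 (0.23 without it, adjusted p = 0.0685) was left out. *Ccn1* was 1.29-fold higher in mutant vehicle (log2 fold change 0.37, standard error 0.06, adjusted p = 0.000111), and this call was lost when all 16 libraries shared a fit (adjusted p = 0.491). With TNFα the log2 fold change of *Ccn1* was -0.11 (standard error 0.37, adjusted p = 0.914). Without control TNFα replicate 4 it was 0.39 (standard error 0.06, adjusted p = 2.41e-05), since the other 3 control TNFα libraries, at 105 to 113 CPM, all lay below the mutant TNFα libraries. *Ccn2* had log2 fold changes of 0.01 with vehicle (95% interval -0.11 to 0.13) and -0.76 with TNFα (95% interval -1.77 to 0.25, adjusted p = 0.376), and the latter was -0.20 without control TNFα replicate 4 (adjusted p = 0.0436). *Thbs1* did not pass the test with vehicle (log2 fold change 0.03, 95% interval -0.07 to 0.13) or with TNFα (log2 fold change -0.25, adjusted p = 0.62), and without control TNFα replicate 4 the latter was 0.0037 (95% interval -0.15 to 0.16). *Sparc* with TNFα was at -0.14 on the log2 scale (adjusted p = 0.172), with an adjusted p of 0.0498 with DESeq2 and 0.018 when all 16 libraries shared a fit.

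Markers of cell types also differed between genotypes, and their part in these results was not tested. Of all genes tested, 6.19% were higher and 4.35% lower in mutant cells with vehicle, and 5.63% and 4.33% with TNFα. With TNFα against vehicle, 23.3% were higher and 20.9% lower in control cells, and 22.6% and 21.9% in mutant cells. All 12 chondrocyte markers were lower in mutant cells under both treatments, with summed levels of 47616 to 50728 CPM in control vehicle, 29137 to 34338 in mutant vehicle, 31835 to 38422 in control TNFα and 17012 to 19189 in mutant TNFα. Without the control replicate 4 libraries 11 of these markers were called lower with vehicle and 12 with TNFα. Of 12 fibroblast and perichondrium markers 6 were higher and 2 lower in mutant vehicle cells, with summed levels of 32666 to 35472 CPM in control and 36902 to 40376 in mutant libraries, and *Thy1* stood at 0.80 on the log2 scale (adjusted p = 7.69e-08). Of 8 smooth muscle and pericyte markers 6 were higher in mutant vehicle, with sums of 2181 to 2398 CPM in control and 3909 to 4558 in mutant libraries. *Acta2*, the smooth muscle actin gene, stood at 0.94 on the log2 scale (adjusted p = 1.26e-10). *Acta2*, *Tagln* and *Cnn1* of this list are also counted among the serum and SRF response genes below, so that the counts of the lists are not independent. Macrophage markers summed to 66.8 to 71.2 CPM in control vehicle and 117 to 136 CPM in mutant vehicle, with 6 of 10 higher in mutant cells (7 without control vehicle replicate 4), and *Aif1* was at 3 counts or fewer in every control library. Endothelial markers summed to 8.58 to 10.7 and 18.7 to 22.6 CPM, with 4 of 7 higher, and skeletal muscle markers to 21.9 to 27.4 and 37.3 to 43.3 CPM, with 4 of 8 higher (5 without control vehicle replicate 4). With TNFα against vehicle all 12 chondrocyte markers fell in both genotypes, among them *Sox9* (log2 fold change -1.44 in control and -1.92 in mutant cells). Without the control replicate 4 libraries 11 of 12 were called lower in control cells. Smooth muscle and pericyte markers were lower with TNFα in 6 of 8 and higher in 1 of 8 in each genotype (medians -0.77 and -0.89), with sums of 1293 to 1542 CPM in control TNFα and 2137 to 2480.4 CPM in mutant TNFα. Without the control replicate 4 libraries 5 of these 8 were lower and 1 higher in control cells. Macrophage markers were higher in 4 of 9 and lower in 1 in control cells, and higher in 7 of 10 and lower in 1 in mutant cells, with sums of 77.6 to 91.9 CPM in control TNFα and 152 to 174 CPM in mutant TNFα. In control cells without the replicate 4 libraries 3 of 9 were higher and 1 lower. Of the 12 fibroblast and perichondrium markers 5 rose and 4 fell with TNFα in control cells, and 4 rose and 2 fell in mutant cells. Between genotypes with TNFα, 7 of these 12 were higher and 1 lower in mutant cells. In that comparison 4 of 8 smooth muscle and pericyte and 8 of 10 macrophage markers were higher. So were 3 of 7 endothelial and 1 of 8 skeletal muscle markers, and 0 of these 4 lists were lower.

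The genotype by TNFα interaction tests whether the response to TNFα differed between genotypes. Of the 10 genes only *Tnc* passed the test, beside 0.474% of the 21321 genes tested. Its interaction was 0.50 on the log2 scale (standard error 0.09, adjusted p = 0.00384), or a 1.42-fold difference between the responses, and it lay between 0.44 and 0.56 with libraries left out. *Tnc* did not pass between genotypes with vehicle (log2 fold change 0.09, 95% interval -0.02 to 0.20), and with TNFα it was 1.52-fold higher in mutant cells (log2 fold change 0.60, standard error 0.08, adjusted p = 2.9e-06). For *Ccn3* the interaction was -0.26 (standard error 0.07, adjusted p = 0.128), with an adjusted p of 0.00715 with DESeq2. *Ccn5* had one of 0.22 (adjusted p = 0.365), which became 0.31 (adjusted p = 0.0436) without both control replicate 4 libraries. *Ccn1* and *Ccn2* had values of -0.48 (95% interval -1.31 to 0.34) and -0.77 (95% interval -1.68 to 0.14), and without those libraries 0.08 (95% interval -0.07 to 0.24) and -0.16 (95% interval -0.31 to 0.0017). The interaction of *Thbs1* was -0.28 with all libraries (95% interval -0.78 to 0.22) and -0.0070 without them (95% interval -0.18 to 0.17). The responses of *Ccn1*, *Ccn2* and *Thbs1* did not pass this test, with or without those libraries.

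**Figure D5:**
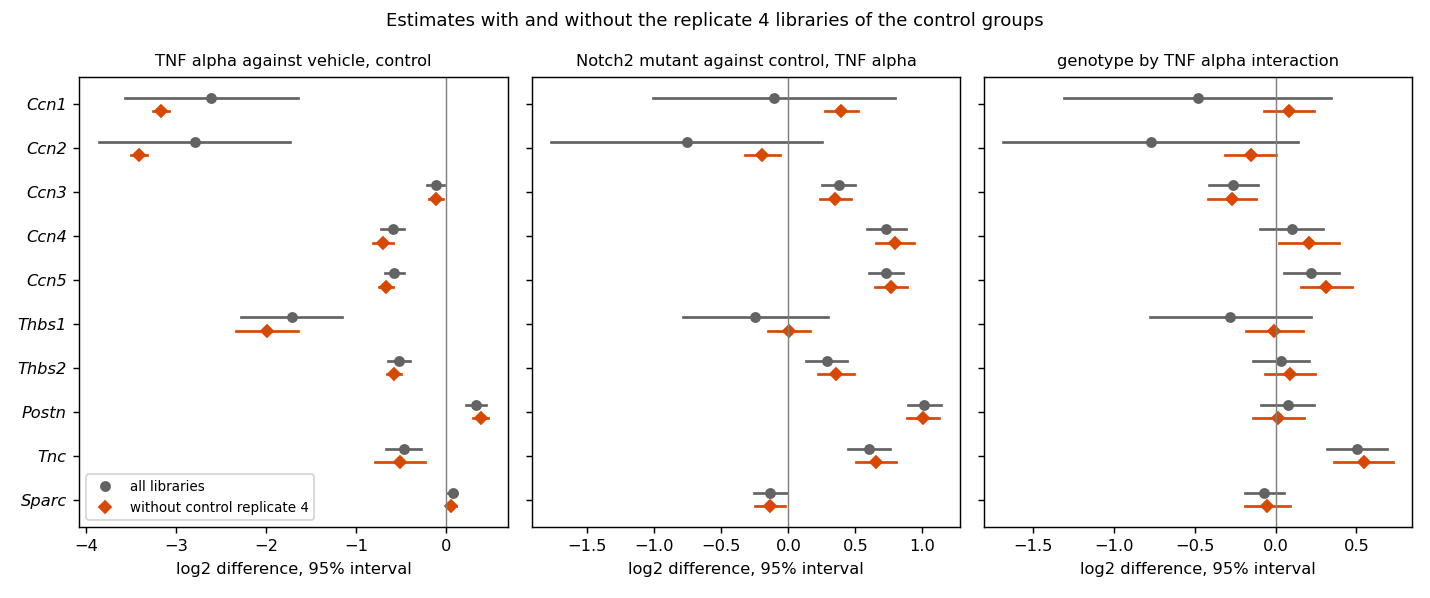
Log2 differences of the 10 genes with 95% intervals, from all libraries (circles) and without replicate 4 of the control groups (diamonds), for TNFα against vehicle in control cells, Notch2 mutant against control with TNFα, and the interaction. The intervals of Ccn1 and Ccn2 shrink most without replicate 4, and that of Tnc in the interaction excludes 0 in both.

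Genes that belong to the same pathways were read from the same fits. Over all genes tested, 23.3% were higher and 20.9% lower with TNFα in control cells, and 22.6% and 21.9% in mutant cells. Of 18 other matricellular genes, 8 were higher and 1 was lower with TNFα in control cells (median 0.28 on the log2 scale), and 8 were higher and 2 lower in mutant cells (median 0.07). *Fstl1*, a follistatin-like glycoprotein, rose in both (0.46 and 0.61), as did *Tnn*, encoding tenascin N (0.29 and 0.93, with an interaction of 0.65 and an adjusted p of 0.0208). Between genotypes with vehicle, 6 of these 18 genes were higher and 5 lower in mutant cells, beside 6.19% and 4.35% of all genes. With TNFα 7 were higher and 4 lower in mutant cells, beside 5.63% and 4.33%. *Tgfbi* (-0.58) and *Spp1* (-0.53) were lower in mutant vehicle cells. *Comp*, a cartilage thrombospondin, was lower in mutant cells with vehicle (-0.46, adjusted p = 1.61e-06) and with TNFα (-0.49), whereas *Thbs4* was higher in mutant cells with TNFα (0.59). Of 16 receptors, 5 rose and 5 fell in control cells with TNFα, and 7 rose and 5 fell in mutant cells. *Itga5*, the fibronectin receptor subunit, fell in both (-0.68 and -0.76).

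Genes controlled by the regulators known for *Ccn1* and *Ccn2* changed in both directions. Of 20 YAP and TEAD targets, 10 fell and 6 rose with TNFα in control cells (median log2 fold change -0.29), beside 20.9% and 23.3% of all genes. In mutant cells 11 fell and 5 rose (median -0.21), beside 21.9% and 22.6%. Without the control replicate 4 libraries 12 of these targets fell and 6 rose in control cells. Among them *Igfbp3* rose (1.91 and 2.54) and *Axl* rose (1.21 and 1.34), while *Nuak2* fell (-1.18 and -1.26) and *F3* fell (-1.17 and -1.38). Of 16 serum and SRF response genes, 12 fell and 3 rose in each genotype, with medians of -0.88 and -0.98, and *Vcl*, encoding vinculin, fell by 1.74 and 2.02. Of 12 TGFβ and SMAD targets 6 fell and 3 rose in each genotype, and 7 fell and 3 rose in control cells without the control replicate 4 libraries. Between genotypes with vehicle, 8 of the 16 serum and SRF genes were higher and 1 lower in mutant cells, led by *Tagln* at 1.04 (adjusted p = 1.26e-11). Of the 20 YAP and TEAD targets 3 were higher and 2 lower, and of all genes tested 6.19% were higher and 4.35% lower. Without control vehicle replicate 4 the counts were 9 and 1 for the serum and SRF genes and 4 and 2 for the YAP and TEAD targets. The serum and SRF list shares *Acta2*, *Tagln* and *Cnn1* with the smooth muscle and pericyte markers. Of the NF-κB targets, the response known best for this cytokine, 9 of 12 were higher with TNFα in control cells, 12 of 12 without the control replicate 4 libraries, and 12 of 12 in mutant cells. Of 5 Notch targets 3 were higher in mutant vehicle and 1 in mutant TNFα cells (2 without control TNFα replicate 4), and *Hes1* fell with TNFα in both genotypes (-2.26 and -2.24).

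Likeness of pattern was measured as Pearson's r of log2 CPM centered on the group means, over the 14 libraries without control replicate 4, among 9575 other genes at 10 CPM or more. These points share their libraries and depth, so that r is a description. The nearest genes were *Cwc25*, *Mcm3* and *Fhdc1* for *Ccn1* (r from 0.89 to 0.93), *Ddah1*, *Pag1* and *Phlpp2* for *Ccn2* (0.87 to 0.90), *Adam12*, *Endod1* and *Ctnnb1* for *Ccn3* (0.83 to 0.90), and *Gtf2f2*, *Mtpap* and *Gorab* for *Ccn4* (0.86 to 0.91). For *Ccn5* they were *Get4*, *Npc2* and *Cct7* (r from 0.96 to 0.97), and for *Sparc* *Odc1*, *Mcm2* and *Creb3* (0.95 to 0.96). *Thbs1* was nearest to *Adamts12*, *Tgfbr2* and *Lrig2* (0.93 to 0.96), and *Tnc* to *Flnc*, *Thbs1* and *Adamts12* (0.92 to 0.93). *Thbs2* was nearest to *Disp1*, *Ergic1* and *Clstn1* (0.95 to 0.96) and *Postn* to *Rasa1*, *Manea* and *Zmym2* (0.95 to 0.96). Within groups, *Ccn1* and *Ccn2* had an r of -0.07, *Ccn2* and *Ccn4* of 0.79, *Tnc* and *Thbs1* of 0.92, and *Ccn5* and *Sparc* of 0.93.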

How the data were processed

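RNA-Seq was carried out on 16 libraries, 4 in each group. The authors deposited whole-number counts per gene from HTSeq, without normalization. Their processing notes name HISAT2 2.1.0, SAMtools 1.9, Picard and GRCm38, while the paper's methods name GRCm39 and another HISAT2 version. The kit keeps strand, but the strand setting of the counting is not given in the sources used here, so that reads of *Ccn1*, *Ccn2*, *Ccn4*, *Thbs1*, *Tnc* and *Postn* cannot be told apart from those of overlapping antisense genes. The 5 entries that name no gene held 8.81 to 12.1% of the counts of a library and were left out. Names and positions came from GENCODE M39 on GRCm39, in which 665 identifiers (0.018% of counts) had no entry.

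Counts were analyzed with edgeR 4.0.16 in R 4.3.3 (TMM, robust quasi-likelihood test), on the 8 libraries of a comparison or all 16 for the interaction, after removal of genes under 10 summed counts, with Benjamini-Hochberg adjustment over all genes tested. A gene was called at an adjusted p under 0.05. RPKM is TMM-scaled CPM per kilobase of union exons. The log2 CPM used a prior count of 2. Intervals are at 95%. The pipeline was tested on simulated data. Figures were made with Python 3.11.15 and matplotlib 3.10.9.

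The genes, lists and tests were chosen with earlier results of these data known. In each list up to 3 genes per comparison were named, the largest called fold changes at a mean of 10 CPM or more. *Notch2* and its targets served as the check of the labels, and *Col2a1*, *Ccn6* and *Aif1* were named outside the rule, after their values were seen. The 3 genes nearest to each of the 10 were named by r. Within groups, libraries differed beyond sampling noise (chi-square per degree of freedom 2.08 to 14.6), and the labels call them biological replicates without naming the animals or cultures, so that p values measure the spread between these libraries. Whether libraries of the same replicate number shared a culture is not stated in the labels, and the main fits did not pair them. Alternatives were DESeq2 1.42.0, RLE scaling, other count filters and thresholds, a fit to all 16 libraries, a replicate block, 1 surrogate variable from sva 3.50.0, and libraries left out.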

Additional observations from a re-analysis of the deposited data

Results flagged for a closer look

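In 4 of the 40 groups of 4 libraries tested (10 genes in 4 groups), a single library lay far from the others, where chance flags about 1 in 20 groups. *Ccn1* was at 284.9 CPM in control TNFα replicate 4, and the other 3 libraries of the group were at 105 to 113 CPM. *Ccn2* was at 544 CPM in the same library and at 177 to 197 CPM in the others. *Postn* was at 292.1 CPM in control vehicle replicate 4, above the 253 to 259 CPM of the other control vehicle libraries. *Ccn5* was at 675.7 CPM in control vehicle replicate 4, below the 779 to 795 CPM of the others. All 4 values came from the 2 libraries that stood apart on the first principal component, and the reason was not tested.

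The response of *Tnc* to TNFα differed between genotypes by the interaction term, which was 0.503 on the log2 scale (adjusted p = 0.00384, edgeR's quasi-likelihood test). *Tnc* was lower with TNFα in all 4 control libraries and overlapped between treatments in mutant cells.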

How the results depend on the processing

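Of the 50 comparisons of single genes, each recomputed under the alternatives, 867 values kept their direction and their side of the threshold, 39 lost a call, 5 gained one with the same sign and 19 changed sign, each of the latter from a value that had not passed the test. Of these 19, 1 was called after the change (*Ccn1* between genotypes without control TNFα replicate 4). A fold cutoff of 2 left 3 genes called with TNFα in control cells, 3 in mutant cells, 0 between genotypes with vehicle and 1 with TNFα. DESeq2 called 2 genes in the interaction, and with libraries left out the interaction count lay between 1 and 2. Sign changes were those of *Sparc* with TNFα in mutant cells (0.021 with filterByExpr, 0.0016 with a fit to all 16 libraries, 0.0071 with 1 surrogate variable, and -0.023 to 0.035 with libraries left out) and of *Ccn2* between genotypes with vehicle (-0.014 with 1 surrogate variable, -0.054 to 0.045 with libraries left out). With libraries left out, *Thbs1* between genotypes lay between -0.0045 and 0.049 with vehicle and between -0.38 and 0.0037 with TNFα, *Ccn1* between genotypes with TNFα between -0.26 and 0.39, and the interactions of *Thbs2* and *Ccn1* between -0.020 and 0.10 and between -0.63 and 0.082. The cause was not tested.

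With the replicate block 9, 8, 6, 6 and 1 genes were called in the 5 comparisons, *Ccn3* lost its call with TNFα in control cells (adjusted p = 0.0593), and *Ccn1* between genotypes with TNFα changed sign (0.070). Same-numbered libraries deviated together in 1 of 24 pairs at r over 0.1 (r from -0.28 to 0.26), which with 4 libraries per group cannot exclude a pairing. With the longest transcript as the length, every gene kept its rank in control vehicle, and only *Thbs2*, *Ccn3*, *Tnc* and *Postn* changed rank in any other group. Ranked over all libraries together, 3 of 10 genes kept their rank. *Ccn2* made up 43.5% of the CCN sum in control vehicle, where it was 40.6% with the union of exons. The 4 libraries per group limit the precision, and the interaction of the genes with control TNFα replicate 4 apart is the least precise.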

Other observations

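Of 6 tendon markers, *Tnmd*, encoding tenomodulin, was higher in mutant cells with vehicle (log2 fold change 1.12, adjusted p = 1.5e-10, edgeR's quasi-likelihood test) and with TNFα (0.97), whereas *Fmod*, encoding fibromodulin, was lower in both (-0.53 and -0.53). *Mkx*, a tendon transcription factor, fell with TNFα in control (-0.81) and mutant cells (-1.05). Of 8 osteoblast markers, 4 fell and 0 rose with TNFα in each genotype, and *Runx2* was among those that fell (-1.21 and -1.86). Of all genes tested, 20.9% fell and 23.3% rose in control cells, and 21.9% and 22.6% in mutant cells. In mutant vehicle cells 2 of the osteoblast markers were higher (*Runx2* at 0.47 and *Alpl* at 0.35), beside 6.19% of all genes. Lower in mutant vehicle cells was 1 marker, beside 4.35%. Without control vehicle replicate 4 these counts were 1 higher and 1 lower.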
